A study of Mus musculus with 6 samples.

Results

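The genes of TGF-β, BMP and activin signaling were examined by RNA-seq in 6 libraries from cultured hypoxic (HO) cardiomyocytes of newborn mice (NMCMs, primary cells). Members were the protein-coding genes whose symbols name a TGF-β, BMP, GDF or inhibin/activin chain, a receptor of these ligands, a SMAD, an ID protein, a latent TGF-β binding protein (LTBP) or a secreted antagonist of the family. This rule found 68 of the 57010 genes counted, and 56 of the 68 had at least 10 counts in 3 or more libraries. One of the 56, Bmp2k, matched the rule by its symbol but encodes a kinase and not a BMP. The other 12 genes (Inhbc, Inhbe, Acvr1c, Bmp15, Bmp5, Bmp8a, Bmp8b, Chrdl2, Gdf1, Gdf2, Gdf5 and Gdf7) held at most 9 counts in any library. Just inside the filter lay Chrdl1, with 7, 1 and 9 counts in the HO + Vehicle libraries and 16, 22 and 13 in the HO + β-SITO libraries. Bmp5 lay just outside, with 4, 0 and 2 counts against 4, 9 and 6.

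HO + Vehicle (libraries V1 to V3) and HO + β-SITO (libraries T4 to T6) had 3 libraries each, called vehicle and β-SITO libraries in what follows. All were made from heart cells of C57BL/6 pups, depleted of fibroblasts by differential adhesion, and β-SITO is the plant sterol β-sitosterol. No normoxic library was used here, and neither the β-SITO dose nor the duration of hypoxia of these libraries is given in the sources used here. The labels do not say whether the libraries of a group came from separate cultures, so the p-values measure the spread between these libraries, which may be technical. Names of the treated libraries in the count table end in a letter that the vehicle names lack, and any difference in preparation cannot be told apart from the treatment.

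Ligands of this family are secreted dimers that bring together type I and type II serine/threonine kinase receptors. TGF-β and activin receptors phosphorylate SMAD2 and SMAD3, BMP receptors phosphorylate SMAD1, SMAD5 and SMAD9, and both classes pair with SMAD4 to enter the nucleus. TGF-β leaves the cell in a latent complex bound to LTBPs in the matrix, BMPs are held by antagonists such as noggin and gremlin, and the inhibitory SMAD6 and SMAD7 close the loop. In the heart the TGF-β branch is known for fibroblast activation, and the BMP branch for development and for endothelial and myocardial growth.

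The libraries held 16694734 to 17082129 counts in the vehicle libraries and 16962152 to 18460522 in the β-SITO libraries. Counts were scaled to counts per 1000000 (CPM) with TMM factors, and 14799 genes were tested with edgeR's quasi-likelihood test. A differentially expressed gene (DEG) had an adjusted p under 0.05 and a change of more than 2-fold. The cells were checked against cell type markers. All 14 cardiomyocyte markers were detected, with Myh6 at 1973 ± 278 CPM and Tnnt2 at 1236 ± 11.0 CPM in the vehicle libraries, but the fibroblast marker Col3a1 reached 10422 ± 180 CPM in the same libraries (SD, n = 3). The summed level of 14 cardiomyocyte markers was 7114 to 8136 CPM in the vehicle libraries and 6247 to 10694 CPM in the β-SITO libraries, where T4 was the lowest of the 6 libraries. The 10 fibroblast markers summed to 30124 to 31360 CPM against 45194 to 46322 CPM, the 10 endothelial markers to 215 to 250 CPM against 903 to 944 CPM, the 8 smooth muscle and pericyte markers to 1101 to 1194 CPM against 1895 to 2149 CPM, and the 12 macrophage markers to 1314 to 1434 CPM against 2868 to 3524 CPM. Of the endothelial markers 10 of 10 were DEGs higher in the β-SITO libraries, of the smooth muscle and pericyte markers 4 of 8, of the macrophage markers 8 of 12 with 1 lower (Fcgr1), of the fibroblast markers 1 of 10 (Dpt) and of the cardiomyocyte markers 3 of 14 (Myl7, Nppa and Myh7). Without the fold cutoff 7 fibroblast markers were higher and 2 lower (Dcn at a log2 fold change of -0.52 and Postn at -0.22). Pdgfra did not pass (adjusted p = 0.0901). Most of the fibroblast sum came from Col1a1, Col1a2 and Col3a1, which are also on the list of genes known to respond to TGF-β used below. Their means were 9100, 6800 and 10422 CPM in the vehicle libraries and 12197, 10215 and 18850 CPM in the β-SITO libraries. Of the cardiomyocyte markers 5 were higher and 2 lower (Tnnt2 at -0.47 and Pln at -0.42). The macrophage markers Adgre1 and Ptprc did not pass (log2 fold changes of -0.06 and -0.03). No marker on these lists was at 0 in all libraries. The part of these marker differences in the results that follow was not tested, and in these bulk samples fewer cells of a type and less RNA per cell cannot be told apart.

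**Figure D1:**
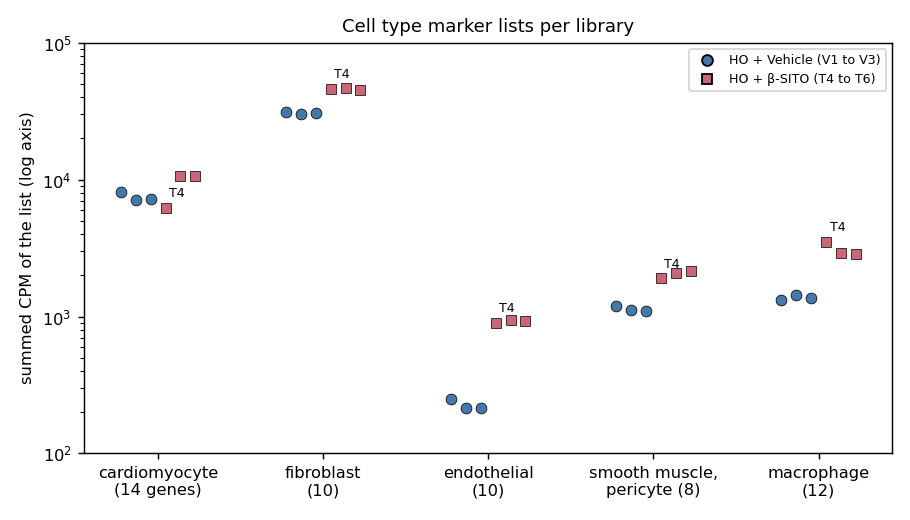
Summed CPM of 5 cell type marker lists (log axis) in each vehicle library (circles) and β-SITO library (squares). The β-SITO libraries lie above every vehicle library on all lists except the cardiomyocyte list, where T4 (6247 CPM) lies below all vehicle libraries, the lowest of which is V2 (7114 CPM). Most of the fibroblast sum comes from Col1a1, Col1a2 and Col3a1.

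Of the 56 members, 11 were DEGs higher and 5 were DEGs lower in the β-SITO libraries. The higher ones were Tgfb2, Tgfb3, Ltbp4, Bmp3, Bmp10, Gdf3, Gdf10, Acvr2b, Smad9, Chrdl1 and Id4, and the lower ones were Ltbp1, Acvr1b, Bmpr1b, Grem1 and Nog. Among all genes tested 22.8% were DEGs, 12.8% higher and 10.1% lower, against 28.6% of the members. This share includes 5 members that reached the filter through one group only and therefore had to differ (Gdf3, Gdf10, Chrdl1, Bmpr1b and Nog). Among the other 51 it was 21.6% (8 higher and 3 lower), near that of all genes. No such genes were left out of the shares of all genes. Without the fold cutoff 26 members were higher and 22 lower, 85.7% of them against 66.8% of all genes (33.0% higher and 33.8% lower). There was no overlap between the groups for 25 higher and 21 lower members, or 82.1% against 70.5% of all genes (34.8% higher and 35.8% lower). Both member shares include the 5 members above. Among the other 51 the share without the fold cutoff was 84.3% and the share without overlap 80.4%. The median log2 fold change of the members was 0.20, and that of all tested genes was -0.01. Among the 43 members with a mean of at least 100 counts, 6 were DEGs higher and 2 lower (18.6%), near the 17.8% of all genes at that level. When CPM used library size alone without TMM factors (library size only), fold changes of all genes moved up by 0.15 on the log2 scale, and members split into 30 higher and 17 lower without the fold cutoff.

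**Figure D2:**
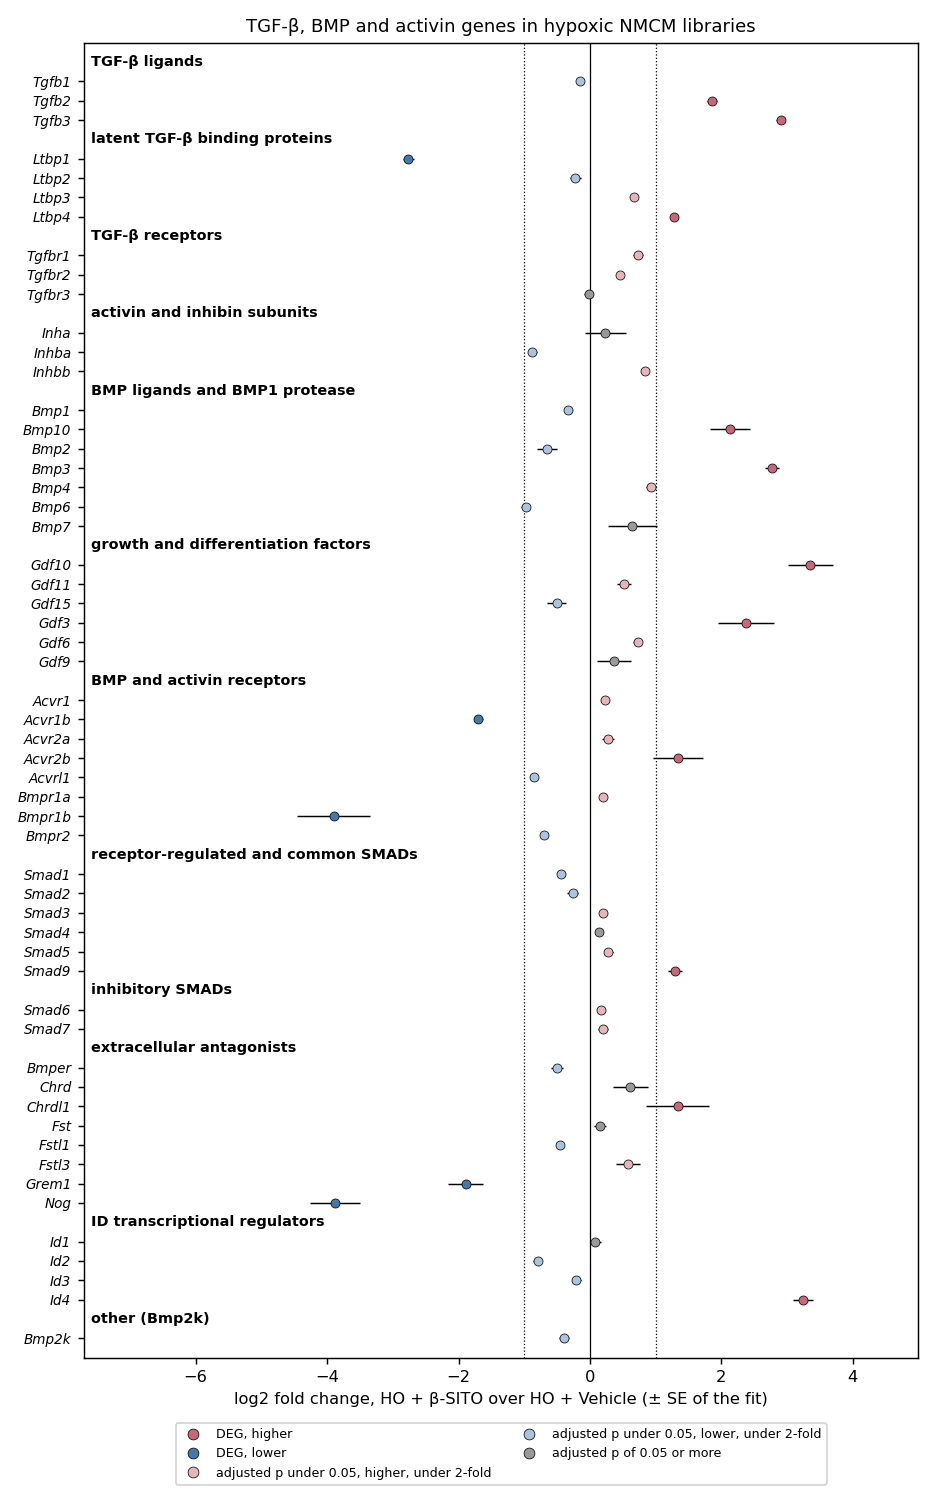
Log2 fold change (HO + β-SITO over HO + Vehicle) with the SE of the fit for 55 of the 56 members, grouped by role, with dotted lines at a 2-fold change. Most members lie within 2-fold of 0, and the 16 DEGs lie outside, from Bmpr1b (-3.90) and Nog (-3.88) to Id4 (3.24) and Gdf10 (3.35).

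The most abundant TGF-β isoform differed between the groups. Tgfb3, the isoform known from palate development, lies on chromosome 12 from 86103519 to 86125815 (GRCm39, the build named in the submitters' processing notes). It had 24.6, 23.6 and 20.9 CPM in V1 to V3 and 167, 174 and 176 CPM in T4 to T6, so that every β-SITO library was above every vehicle library. Its level rose 7.48-fold, a log2 fold change of 2.90 ± 0.07 (SE, adjusted p = 1.20e-14). Tgfb2 (chromosome 1, 186354989 to 186438186) had 21.2, 18.8 and 23.2 CPM against 75.3, 74.6 and 79.5 CPM, again without overlap, and rose 3.63-fold (log2 fold change 1.86 ± 0.08, adjusted p = 9.94e-12). Tgfb1, the isoform best known for fibrosis, had 175, 171 and 165 CPM against 155, 155 and 151 CPM. Its groups did not overlap, but the log2 fold change was only -0.15 ± 0.05 (adjusted p = 0.0227) and moved to -0.004 with library size only (adjusted p = 0.949). This call was also lost without a filter on low counts (adjusted p = 0.0751) and without V1 (0.103), T5 (0.121) or T6 (0.134).

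Levels per length were compared as CPM per kilobase of exon, with exon lengths from GENCODE vM21. The 3 ligands together had 44.3 ± 1.35 CPM per kb in the vehicle libraries and 94.6 ± 1.44 CPM per kb in the β-SITO libraries (SD, n = 3). Tgfb1 made up 76.4% ± 0.401 of this sum in the vehicle libraries and 32.2% ± 0.828 in the β-SITO libraries. The share of Tgfb3 was 15.4% ± 0.856 against 53.8% ± 0.702, and that of Tgfb2 8.22% ± 1.01 against 14.0% ± 0.395 (SD, n = 3). The most abundant isoform was therefore Tgfb1 in all 3 vehicle libraries and Tgfb3 in all 3 β-SITO libraries. Tgfb3 overlaps Ttll5 on the other strand, which had a mean of 279 counts against 1805 for Tgfb3. The strand setting of the counting is not given in the sources used here.

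The genes of latent TGF-β binding proteins, which anchor latent TGF-β to fibrillin and fibronectin, moved in opposite directions. Ltbp1 (chromosome 17, 75312563 to 75699507) had 294, 281 and 293 CPM in V1 to V3 and 36.1, 45.9 and 46.1 CPM in T4 to T6. All β-SITO libraries were far below the vehicle libraries, and Ltbp1 was 6.79-fold lower (log2 fold change -2.76 ± 0.08, adjusted p = 1.59e-13). Ltbp4, which also takes part in elastic fibre assembly (chromosome 7, 27004561 to 27037117), had 363, 351 and 335 CPM against 829, 867 and 843 CPM, and rose 2.42-fold without overlap (log2 fold change 1.28 ± 0.06, adjusted p = 2.82e-11). Ltbp3 passed the test under 2-fold, with 181 ± 10.7 CPM against 289 ± 11.9 CPM (SD, n = 3) and a log2 fold change of 0.68. Ltbp2, whose protein does not bind latent TGF-β, passed at -0.22 (adjusted p = 0.0248), but not with library size only (-0.07, adjusted p = 0.444) or without V1 (-0.10, adjusted p = 0.235), T5 (adjusted p = 0.111) or T6 (adjusted p = 0.0636). Per length, Ltbp1 was 25.1% ± 0.943 of the LTBP sum in the vehicle libraries and 2.31% ± 0.262 in the β-SITO libraries, and Ltbp4 was 50.2% ± 0.834 against 75.9% ± 0.451 (SD, n = 3).

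**Figure D3:**
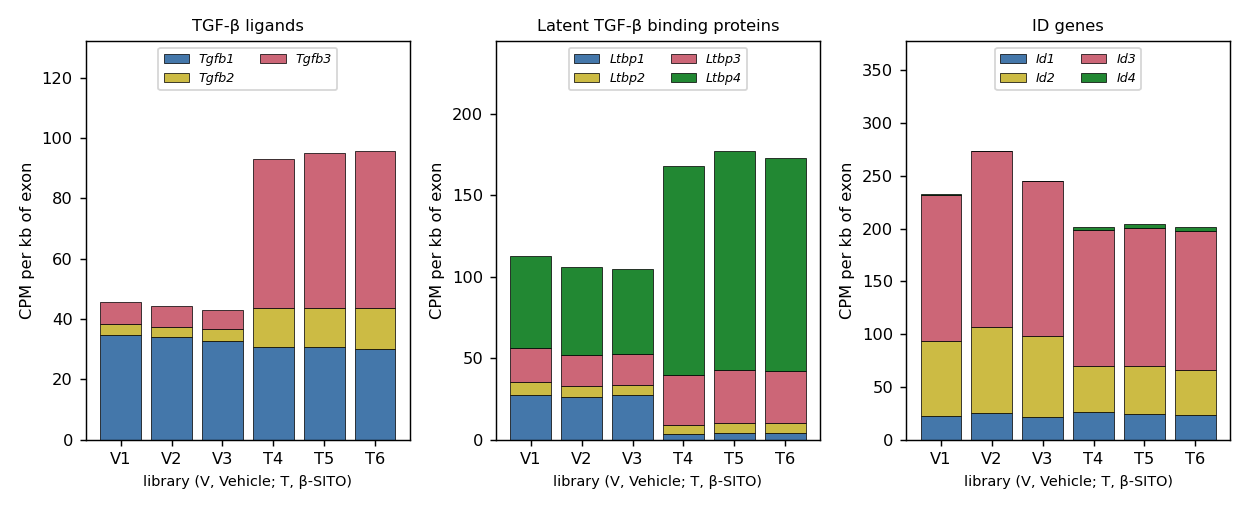
CPM per kilobase of exon of the TGF-β ligands, the LTBPs and the ID genes, stacked by gene, in each library. The ligand sum is 43.0 to 45.6 in V1 to V3 and 93.0 to 95.7 in T4 to T6, with Tgfb1 as the largest part in the former and Tgfb3 in the latter, and the Ltbp1 part shrinks from 25.1% to 2.31%.

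Of the 3 TGF-β receptor genes 2 rose, both under 2-fold. Tgfbr1, the type I receptor ALK5, had 41.7, 39.7 and 47.6 CPM in V1 to V3 and 70.3, 75.8 and 69.1 CPM in T4 to T6. It rose 1.67-fold (log2 fold change 0.74 ± 0.07, adjusted p = 3.84e-07), with no overlap between the groups. Tgfbr2, the type II receptor, had 216, 195 and 199 CPM against 292, 277 and 267 CPM, also without overlap (log2 fold change 0.45 ± 0.06, adjusted p = 9.40e-06). Tgfbr3, which encodes the co-receptor betaglycan, had 94.4, 80.3 and 95.7 CPM against 87.3, 91.2 and 88.9 CPM. These libraries overlapped and the test was not passed (log2 fold change -0.02 ± 0.07, adjusted p = 0.852).

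Activin genes went opposite ways below 2-fold. Inhba, the subunit of activin A, had 57.0, 55.0 and 53.6 CPM in V1 to V3 and 29.2, 31.6 and 29.4 CPM in T4 to T6, and fell without overlap (log2 fold change -0.88 ± 0.07, adjusted p = 1.52e-08). Inhbb, the subunit of activin B, had 55.9, 55.7 and 49.2 CPM against 93.5, 99.1 and 95.4 CPM, and rose without overlap (0.84 ± 0.07, adjusted p = 1.93e-08). Per length Inhba stood at 8.64 against 4.70 CPM per kb and Inhbb at 12.6 against 22.6 CPM per kb. Inha, which forms inhibins with either subunit, had 9 to 24 counts a library and did not pass (adjusted p = 0.529). The activin type I receptor ALK4, encoded by Acvr1b (chromosome 15, 101071948 to 101111565), had 185, 164 and 177 CPM in V1 to V3 and 54.1, 57.3 and 50.5 CPM in T4 to T6. It was 3.24-fold lower in the β-SITO libraries (log2 fold change -1.70 ± 0.07, adjusted p = 5.19e-12), without overlap, and leaving out any 1 library gave -1.74 to -1.64. The activin type II receptors were low. Acvr2a passed at a log2 fold change of 0.28 (adjusted p = 0.0200), a call that was lost without T5 (adjusted p = 0.0596) or T6 (0.0682). Acvr2b, with 13, 14 and 3 counts against 25, 32 and 33, was a DEG at 1.34 ± 0.38 (adjusted p = 0.00587), but its log2 fold change was 0.93 without V3.

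Among the 7 BMP genes 2 DEGs rose, 3 genes passed as lower under 2-fold and 1 as higher under 2-fold. Bmp3, whose protein is known to oppose other BMPs, had 4.61, 4.14 and 4.90 CPM in V1 to V3 and 28.1, 33.1 and 31.9 CPM in T4 to T6. It rose 6.80-fold without overlap (chromosome 5, 99002274 to 99032255, log2 fold change 2.77 ± 0.11, adjusted p = 4.09e-12). Bmp10, a ligand of the myocardium, had 1.52, 1.25 and 1.92 CPM against 3.80, 8.21 and 8.69 CPM (24, 20 and 31 counts against 74, 146 and 167). Its log2 fold change was 2.13 ± 0.30 (adjusted p = 1.36e-05), and T4, the library with the lowest cardiomyocyte markers, also had the lowest Bmp10 level of its group. In the fits that each left out 1 library it was 1.93 to 2.43. The role of the cardiomyocyte share in this difference was not tested.

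Bmp4, a ligand of mesoderm and cardiac development, had 21.0, 24.6 and 21.3 CPM in V1 to V3 and 42.0, 40.8 and 45.0 CPM in T4 to T6. Its groups did not overlap, and the log2 fold change was 0.93 ± 0.08 (adjusted p = 6.32e-08), or 1.01 without V2 and 1.08 with library size only. Bmp6, known as the ligand that sets hepcidin in iron control, had 118, 109 and 111 CPM against 62.8, 55.4 and 53.7 CPM. It fell without overlap, just under 2-fold (-0.97 ± 0.07, adjusted p = 5.48e-09), and its log2 fold change was -1.04 without T4. Bmp6 overlaps Txndc5 on the other strand, which had a mean of 9087 counts. Bmp2 fell from 8.30 ± 0.303 to 5.29 ± 1.15 CPM (SD, n = 3, log2 fold change -0.65, adjusted p = 0.00162). Bmp1, which encodes the procollagen C-proteinase and is no BMP ligand, fell from 287 ± 10.7 to 229 ± 5.96 CPM (SD, n = 3, log2 fold change -0.33). Bmp7 was at 11 to 34 counts a library and did not pass (adjusted p = 0.139, and 0.0106 without T4).

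Of the growth and differentiation factors that reached the filter in both groups, Gdf6 and Gdf11 rose and Gdf15 fell, all under 2-fold. Gdf6, a BMP-type ligand of joint and eye development and the most abundant gene of this group per length, had 130, 126 and 130 CPM in V1 to V3 and 240, 196 and 203 CPM in T4 to T6. It rose 1.65-fold without overlap (log2 fold change 0.73 ± 0.07, adjusted p = 3.36e-07), from 36.4 to 60.2 CPM per kb. Gdf10 (also called BMP3B) had 3, 8 and 3 counts against 50, 63 and 59 counts, a log2 fold change of 3.35 ± 0.34 (3.98 without V2). Gdf3, a factor of the early embryo, had 2, 5 and 3 counts against 26, 15 and 22 counts (2.38 ± 0.43). Both passed the filter through the β-SITO libraries only, so no test is given for them. They rest on few counts in the vehicle libraries, so the sizes are imprecise. Gdf11, a close relative of myostatin, rose from 15.7 ± 2.12 to 22.5 ± 1.90 CPM, and Gdf15, a cytokine of cellular stress, fell from 8.10 ± 1.19 to 5.69 ± 0.595 CPM (SD, n = 3), with log2 fold changes of 0.52 and -0.51. Gdf9 did not pass (adjusted p = 0.230).

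**Figure D4:**
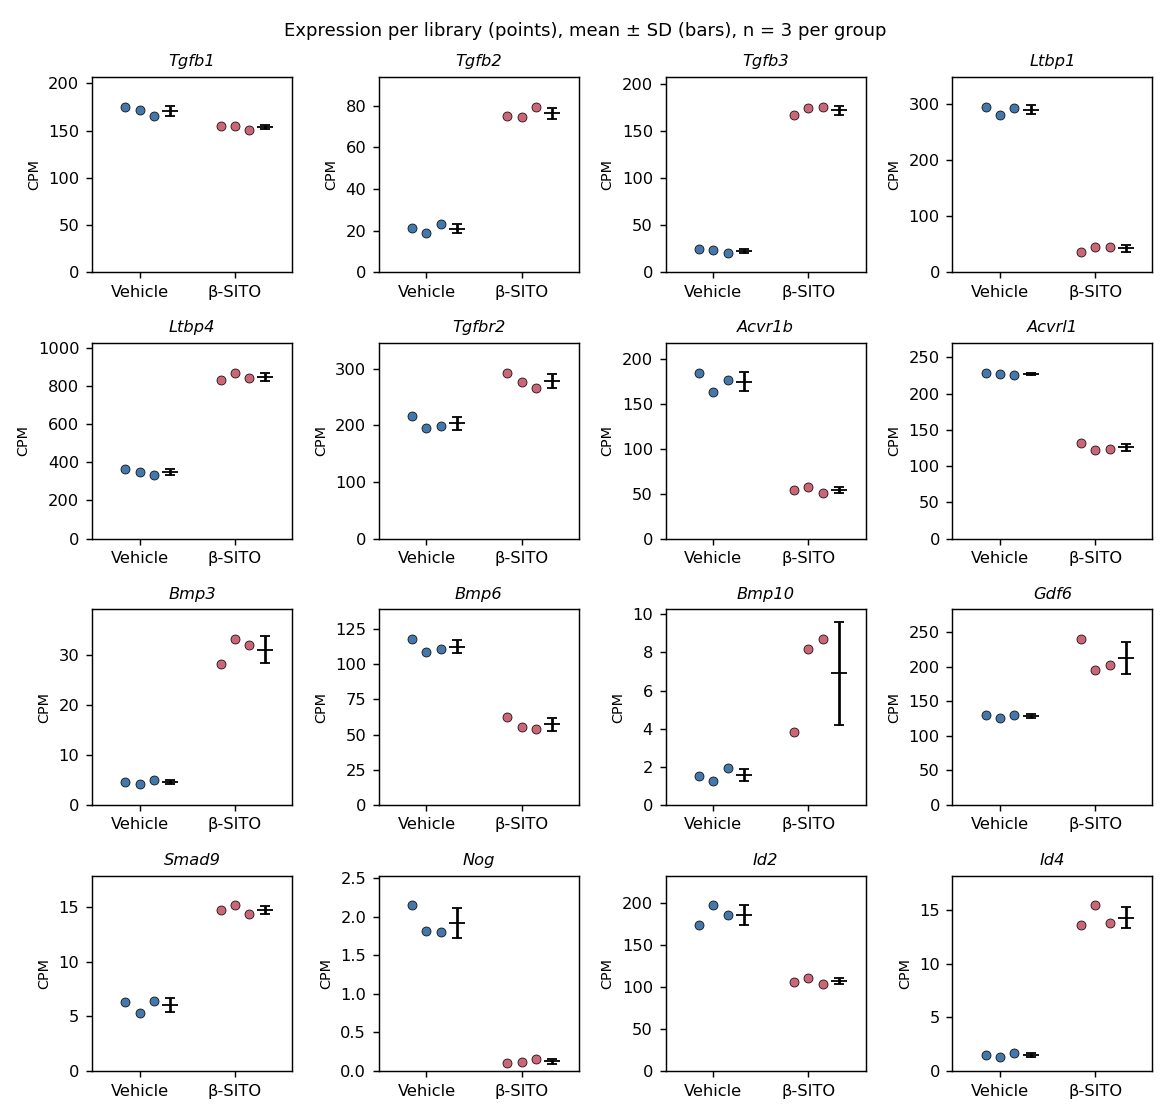
CPM of 16 members in each library (points) with the group mean ± SD (bars, n = 3) on linear axes from 0. Tgfb2, Tgfb3, Ltbp4, Bmp3, Smad9 and Id4 stand higher, and Ltbp1, Acvr1b, Acvrl1, Bmp6, Nog and Id2 lower, in all β-SITO libraries, and T4 is the lowest β-SITO library for Bmp10 (3.80 CPM).

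BMP receptor genes went both ways. Acvrl1 encodes ALK1, the type I receptor of endothelial cells for BMP9 and BMP10. It had 228, 228 and 226 CPM in V1 to V3 and 132, 122 and 124 CPM in T4 to T6, and fell without overlap (log2 fold change -0.85 ± 0.06, adjusted p = 2.54e-09). The 10 endothelial markers rose in the same libraries, with a median log2 fold change of 2.26. Eng, the ALK1 co-receptor endoglin and not a member, fell from 535 ± 26.5 to 409 ± 20.9 CPM (SD, n = 3, log2 fold change -0.39). Bmpr2, the main type II receptor for BMPs, had 282, 278 and 291 CPM against 165, 190 and 170 CPM, and fell without overlap (-0.70 ± 0.06, adjusted p = 1.12e-07). The type I receptors Bmpr1a (ALK3) and Acvr1 (ALK2) passed as slightly higher. Bmpr1a had 153, 160 and 160 CPM against 170, 190 and 182 CPM (0.19 ± 0.06, adjusted p = 0.00951), and Acvr1 had 62.2, 58.9 and 64.0 CPM against 70.5, 74.8 and 72.0 CPM (0.23 ± 0.06, adjusted p = 0.00365). Bmpr1b (ALK6) was low throughout, with 24, 36 and 21 counts against 1, 5 and 0 counts. The log2 fold change was -3.90 ± 0.56 and became -5.66 without T5. It passed the filter through the vehicle libraries only, so no test is given for it.

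The SMAD genes changed little, apart from Smad9. Smad9, a SMAD of the BMP branch (chromosome 3, 54663003 to 54708678), had 6.32, 5.27 and 6.45 CPM in V1 to V3 and 14.7, 15.2 and 14.4 CPM in T4 to T6, and rose 2.45-fold without overlap (log2 fold change 1.30 ± 0.11, adjusted p = 5.88e-08). It remained the least abundant SMAD per length, at 1.07% ± 0.0906 of the sum of the 8 SMADs in the vehicle libraries and 2.40% ± 0.0919 in the β-SITO libraries (SD, n = 3). Smad1 had 70.2, 66.4 and 66.3 CPM against 50.4, 48.6 and 51.1 CPM and fell without overlap (-0.43 ± 0.06, adjusted p = 1.42e-05). Smad5 had 98.9, 82.4 and 93.3 CPM against 114, 109 and 110 CPM and rose without overlap (0.28 ± 0.07, adjusted p = 0.00196). The BMP-branch SMAD genes thus moved in different directions. Of the TGF-β branch, Smad3 had 74.9, 71.3 and 71.7 CPM against 84.0, 83.3 and 82.8 CPM (0.20 ± 0.06, adjusted p = 0.00608). Smad2 had 67.0, 56.9 and 67.1 CPM against 58.0, 51.2 and 49.9 CPM, with overlap (-0.26 ± 0.08, adjusted p = 0.00859), and lost its call with library size only (adjusted p = 0.210) or without V1 (0.0578), V3 (0.0760), T5 (0.0627) or T6 (0.0563). The common Smad4 had 79.2, 77.4 and 84.2 CPM against 91.1, 83.5 and 91.1 CPM and did not pass (0.14 ± 0.06, adjusted p = 0.0557). It passed with library size only (0.29, adjusted p = 6.62e-04), without V3 (adjusted p = 0.0229) and without T5 (adjusted p = 0.0189).

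The inhibitory SMAD genes, which are themselves induced by the pathway, had differences of similar small size. Smad6 had 69.6, 72.5 and 71.9 CPM in V1 to V3 and 79.4, 80.5 and 81.0 CPM in T4 to T6 (log2 fold change 0.17 ± 0.06, adjusted p = 0.0146). Smad7 had 78.5, 73.9 and 70.8 CPM against 76.2, 89.7 and 90.8 CPM, with overlap (0.20 ± 0.07, adjusted p = 0.0251). The call for Smad7 was lost without V3 (adjusted p = 0.0725), T5 (0.0577) or T6 (0.0932).

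Extracellular antagonist genes went both ways. Nog encodes noggin, which binds BMP2, BMP4 and BMP7. It had 34, 29 and 29 counts in V1 to V3 and 2, 2 and 3 counts in T4 to T6, which makes it at least 11.4-fold lower, taking 3 counts per library as the floor (chromosome 11, 89191464 to 89193158). Nog passed the filter through the vehicle libraries only, so no test is given for it. Grem1, the gene of the BMP antagonist gremlin, had 42, 61 and 59 counts against 14, 23 and 14 counts and fell without overlap (log2 fold change -1.89 ± 0.27, adjusted p = 1.54e-05). Both antagonists were low in the vehicle libraries too, at 1.92 ± 0.197 and 3.38 ± 0.633 CPM (SD, n = 3). The abundant member was Fstl1, a secreted glycoprotein related to follistatin, with 3433, 3366 and 3603 CPM against 2542, 2518 and 2510 CPM. It fell 1.37-fold without overlap (-0.46 ± 0.06, adjusted p = 5.08e-06), and per length it was the highest of the 56 members, at 706 and 513 CPM per kb.

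Bmper, which encodes a BMP-binding protein of endothelial cells, fell from 46.3 ± 2.37 to 32.7 ± 4.24 CPM (SD, n = 3, log2 fold change -0.50, adjusted p = 1.28e-04). Chrdl1 had a log2 fold change of 1.33 ± 0.48 and was no DEG without V2 (0.85) or T5 (1.09). It passed the filter through the β-SITO libraries only, so no test is given for it. Fstl3, whose protein binds activins, had a log2 fold change of 0.58 (adjusted p = 0.0139) with overlapping libraries, and its call was lost without V2 (adjusted p = 0.0545) or T6 (0.0754). Fst, the gene of follistatin, the main activin-binding protein, stood at 12.7 ± 0.565 and 14.2 ± 1.01 CPM (SD, n = 3) and did not pass (adjusted p = 0.167), although it did with library size only (log2 fold change 0.30, adjusted p = 0.0111). The chordin gene Chrd did not pass either (adjusted p = 0.0571), and it passed with library size only (0.0209) and without V3 (0.0359) or T4 (0.0198). Outside these roles, Bmp2k fell from 60.6 ± 3.54 to 46.0 ± 4.22 CPM (SD, n = 3, log2 fold change -0.40, adjusted p = 2.76e-04).

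ID proteins are helix-loop-helix inhibitors of differentiation, and Id1, Id2 and Id3 are known direct targets of BMP-activated SMADs. The members with an entry in RefSeq's promoter table (GRCm38.p6) numbered 38 of 56, and these had 47 promoters in it. For Id2, Id3, Id4, Tgfb2 and Smad9 the 250 bases before the start are shown. These ID genes and Smad9 belong to the nuclear arm, and Tgfb2 is a ligand that rose. No window is shown for the other members, among them Id1 and Tgfb3. The sequences are written 5′ to 3′ on the strand of the gene. Capitals mark CAGAC (or its complement GTCTG), the core that SMAD3 and SMAD4 bind. They also mark GGCGCC, a GC-rich SMAD site that reads the same on both strands. Id2 is chr12:25096093-25096342 (minus strand), Id3 chr4:136143572-136143821 (plus), Id4 chr13:48260866-48261115 (plus), Tgfb2 chr1:186705990-186706239 (minus) and Smad9 chr3:54755332-54755581 (plus). The starts are those of RefSeq, and for Id4 the bases that follow the start matched no GENCODE vM21 transcript of the gene.
Id2: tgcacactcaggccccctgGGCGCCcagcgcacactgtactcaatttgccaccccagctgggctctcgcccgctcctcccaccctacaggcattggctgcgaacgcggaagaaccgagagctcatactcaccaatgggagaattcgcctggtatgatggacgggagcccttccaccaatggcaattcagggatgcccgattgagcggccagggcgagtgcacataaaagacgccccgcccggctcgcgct
Id3: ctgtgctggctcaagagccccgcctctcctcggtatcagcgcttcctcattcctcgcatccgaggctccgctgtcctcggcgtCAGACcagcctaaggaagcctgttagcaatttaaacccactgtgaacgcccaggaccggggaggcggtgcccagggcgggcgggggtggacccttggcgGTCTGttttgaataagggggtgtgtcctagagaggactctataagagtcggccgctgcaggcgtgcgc
Id4: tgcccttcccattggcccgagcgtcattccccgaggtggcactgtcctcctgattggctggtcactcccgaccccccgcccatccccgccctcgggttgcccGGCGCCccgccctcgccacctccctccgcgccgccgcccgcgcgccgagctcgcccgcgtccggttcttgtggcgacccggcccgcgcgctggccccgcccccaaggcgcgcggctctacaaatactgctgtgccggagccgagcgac
Tgfb2: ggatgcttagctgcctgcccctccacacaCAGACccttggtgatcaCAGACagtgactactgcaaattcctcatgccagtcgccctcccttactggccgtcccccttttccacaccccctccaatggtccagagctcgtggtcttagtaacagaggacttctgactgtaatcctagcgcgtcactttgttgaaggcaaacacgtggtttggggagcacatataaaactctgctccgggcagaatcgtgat
Smad9: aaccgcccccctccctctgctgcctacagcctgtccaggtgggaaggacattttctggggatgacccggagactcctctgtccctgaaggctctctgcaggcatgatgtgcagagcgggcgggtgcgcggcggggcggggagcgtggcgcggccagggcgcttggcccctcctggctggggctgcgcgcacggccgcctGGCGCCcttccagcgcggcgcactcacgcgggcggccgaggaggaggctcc
The Id2, Id4 and Smad9 windows each held 1 GGCGCC and no CAGAC, and the Id3 and Tgfb2 windows each held 2 CAGAC and no GGCGCC. Among all 32851 promoters of this length 42.2% held CAGAC on either strand, as did 20 of the 47 member promoters (42.6%). The shares for GGCGCC were 9.59% of all promoters and 12 of the 47 (25.5%). The median GC content of all promoters was 52.4%. The windows shown had 62.8% (Id2), 62.8% (Id3), 75.6% (Id4), 53.6% (Tgfb2) and 73.2% (Smad9). The part of GC content in the GGCGCC shares was not tested. The palindrome GTCTAGAC was in 0.167% of all promoters and in none of the 47. None of these motifs contains another. These are matches of letters, and no factor binding was measured.

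The 4 ID genes did not move together. Id4 (chromosome 13, 48414704 to 48419502 in GRCm39) had 1.52, 1.32 and 1.67 CPM in V1 to V3 and 13.7, 15.5 and 13.8 CPM in T4 to T6, and rose 9.47-fold without overlap (log2 fold change 3.24 ± 0.15, adjusted p = 2.86e-11). Id2 had 174, 197 and 186 CPM against 106, 111 and 103 CPM and fell without overlap (-0.80 ± 0.06, adjusted p = 1.84e-08). Id1, the gene most used as a readout of BMP signaling, had 25.7, 29.8 and 25.3 CPM against 30.0, 28.0 and 27.4 CPM. Its libraries overlapped and it did not pass (0.08 ± 0.08, adjusted p = 0.413), although it did with library size only (0.23, adjusted p = 0.0266). Id3 had 249, 299 and 264 CPM against 231, 235 and 237 CPM (-0.21 ± 0.07, adjusted p = 0.0135). It lost this call with library size only (-0.06, adjusted p = 0.468) or without V2 (-0.13, adjusted p = 0.0756) or T5 (adjusted p = 0.0712). Per length Id3 was the largest part of the ID sum in both groups (60.2% ± 0.668 and 64.5% ± 0.912), and Id4 went from 0.157% ± 0.0280 to 1.83% ± 0.112 (SD, n = 3), so the 9.47-fold rise concerned a minor member.

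Other genes of the pathway were taken from 4 lists, which together held 87 tested genes that are not members. Of these, each counted once, 16 were DEGs higher and 12 DEGs lower, with a median log2 fold change of 0.17. The DEG counts of these lists stand against 12.8% higher and 10.1% lower among all tested genes. Among 24 tested ligands, co-receptors and activators 6 were higher and 3 lower. Itgav, the αv integrin chain that activates latent TGF-β, had 947, 919 and 975 CPM in V1 to V3 and 277, 276 and 272 CPM in T4 to T6, a 3.44-fold decrease (log2 fold change -1.78 ± 0.06, adjusted p = 3.54e-13). Nrros, which anchors latent TGF-β on macrophages and microglia, rose 3.97-fold from 8.87 ± 0.554 to 35.2 ± 3.22 CPM. The macrophage marker list had a median log2 fold change of 1.26, but it was split. Adgre1 (-0.06) and Ptprc (-0.03) did not pass, and Fcgr1 was lower (-2.18). Pcsk6, a proprotein convertase, rose 3.45-fold, and Thbs2, the gene of thrombospondin-2, rose 3.36-fold. Among 28 intracellular modulators 1 was higher (Pmepa1, 2.03-fold) and 2 were lower, namely the corepressor gene Tgif1 (2.19-fold) and the ubiquitin ligase gene Smurf1 (2.06-fold).

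Of 28 tested genes known to respond to TGF-β, 7 were DEGs higher and 5 DEGs lower. Without the fold cutoff 19 were higher and 9 lower, against 33.0% and 33.8% of all tested genes. Ccn2, the gene of connective tissue growth factor, had 71.3, 65.6 and 60.7 CPM in V1 to V3 and 381, 390 and 399 CPM in T4 to T6, and rose 5.92-fold (log2 fold change 2.57 ± 0.07, adjusted p = 3.17e-14). Timp3, an inhibitor of metalloproteinases, rose 6.12-fold, and Ccn1, a matricellular relative of Ccn2, 3.78-fold. Timp1, another metalloproteinase inhibitor, had 1635, 1874 and 1671 CPM against 68.5, 69.2 and 68.9 CPM and was 25.1-fold lower (-4.65 ± 0.07, adjusted p = 1.48e-16). Other lower DEGs were the transcription factor genes Junb (3.10-fold) and Bhlhe40 (2.12-fold) and the cell cycle inhibitor gene Cdkn1a (2.97-fold), which are named here after their values were seen. A smaller part of the higher DEGs is named in this paragraph, and the median log2 fold change of the 28 genes was 0.55. These classical targets therefore went both ways in the same libraries, more often higher than lower. They also respond to other stimuli. The list shares Col1a1, Col1a2, Col3a1 and Postn with the fibroblast markers, Acta2, Cnn1 and Tagln with the smooth muscle markers, Pmepa1 and Skil with the intracellular modulators, and Thbs1 with the ligands, co-receptors and activators. Of 12 tested genes known to respond to BMP, 4 were DEGs higher and 2 lower. Hey1, a Notch and BMP target of endothelial cells, rose from 1.61 ± 0.707 to 18.2 ± 1.36 CPM (SD, n = 3). The difference was 3.50 ± 0.19 on the log2 scale (adjusted p = 2.52e-10), beside the higher endothelial markers. The counts measure transcripts, and SMAD phosphorylation and ligand activation were not measured.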

How the data were processed

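RNA-seq was performed on 6 libraries of hypoxic NMCMs, 3 per group. The values the authors deposited are raw counts per gene in 1 table, not normalized, with gene symbols, biotypes and coordinates. The submitters' processing notes name FastQC, HISAT2, featureCounts and the build GRCm39, without versions. Counting options and strand setting are not given in the sources used here. For the library kit the paper's methods name ABclonal and the labels Illumina.

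Groups were taken from the sample titles. From the deposited counts, genes were filtered with filterByExpr, normalized with TMM and compared with edgeR 4.0.16 (quasi-likelihood test, group as the only term, Benjamini-Hochberg adjustment over 14799 genes, R 4.3.3). The DEG threshold (adjusted p under 0.05, more than 2-fold) is that of the study, which used DESeq2. The SE comes from the test's F statistic. The biological coefficient of variation was 6.52%, and replicate pairs differed by more than sampling noise (chi-square per degree of freedom 1.94 to 9.00, highest for the pairs with T4). CPM use TMM-scaled library sizes, and at most 3 counts in every library of a group were treated as a floor (0.154 to 0.189 CPM), for counting error only. Exon lengths are from GENCODE vM21, matched by gene identifier for all 56 members.

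Members and lists were chosen with earlier results of these data known. Named were members past the filter, and of each pathway list the 4 DEGs with the largest change and a mean of at least 100 counts. Alternatives were DESeq2 1.42.0, limma-voom (limma 3.58.1), glmTreat, 3 other scalings, 2 other filters and the removal of each library. Of the members, 1 is counted but its values are not reported here, and likewise 1 gene of the pathway lists.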

Additional observations from a re-analysis of the deposited data

How the results depend on the processing

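No paired analysis was possible because the groups share no replicate numbers (1 to 3 and 4 to 6). The number of members called lower (5 DEGs) was 5 or 6 and that of members called higher (11) was 9 to 12 under every alternative run, and counts without the fold cutoff stayed within 1.5 times. Of the 48 members with an adjusted p under 0.05, 43 passed in the same direction under all 3 other scalings and 39 of these also with DESeq2, limma-voom, both filters and each library left out. All these counts include the 5 members that reached the filter through one group only (2 of the DEGs lower and 3 of those higher). Those members had to differ, and no such counts were made for the other 51. The median log2 fold change of the members was 0.20 and moved to 0.34 both with upper quartile normalization and with library size only, where all genes shifted by 0.14 and 0.15. The pathway genes that are not members had 16 DEGs higher, which became 10 with glmTreat against a 2-fold change and 25 with library size only. Bmp4 became a DEG (log2 fold change 1.08) under the latter scaling and also without V2 (1.01), and Bmp6 became one without T4 (-1.04). Acvr2b (adjusted p = 0.365) and Chrdl1 were no DEGs with glmTreat. Tgfbr3, which did not pass, changed sign with upper quartile normalization (0.13), with library size only (0.13), and without V1 or V3, and Inha, which did not pass, without V1. With each library left out these values ran from -0.090 to 0.053 for Tgfbr3 and from -0.027 to 0.51 for Inha. For these small values the cause was not tested. Low counts limit Nog, Bmpr1b, Gdf3, Gdf10, Chrdl1 and Acvr2b, where sizes are imprecise.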
